A study of Homo sapiens with 6 samples.

Results

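The genes for plasminogen activators, their cell-surface receptors and their serpin inhibitors were examined in LX-2 cells, an established human hepatic stellate cell line. The members were 8 of the 60748 genes in the deposited table and were taken by symbol: PLAU, PLAT, PLAUR, ANXA2, S100A10, SERPINE2, SERPINB2 and SERPINF1. The set was chosen by its function and with the rise of SERPINB2 in this same comparison in view, so the SERPINB2 difference is given below as a description with no test. RNA was sequenced from 3 libraries of LX-2Vector cells, which carry the empty lentiviral vector, and 3 libraries of LX-2FAP cells, which stably overexpress fibroblast activation protein α (FAPα). Per the labels, all were cultured for 24 h. The study's methods give both lines the same lentiviral vector, with a ubiquitin promoter, EGFP and puromycin resistance, so the control carries these too. By the methods stable clones were selected with puromycin, so FAPα cannot be told apart from other differences between the lines. No source used here says whether the 3 libraries of a line came from separate cultures. The p-values therefore measure the spread between these libraries, which may be technical.

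Plasminogen is a circulating zymogen that is cut to plasmin by urokinase (PLAU, uPA) or by tissue plasminogen activator (PLAT, tPA). Urokinase acts on the cell surface when bound to its receptor PLAUR (uPAR), and the heterotetramer of annexin A2 (ANXA2) and S100A10 (p11) is a docking site for plasminogen and tPA. Serpins such as SERPINB2 and SERPINE2 trap the activators. FAPα itself touches this system, because its soluble form trims α2-antiplasmin, the main plasmin inhibitor and the product of SERPINF2.

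The FAP gene, the check of the labels, had 42 to 55 counts in the LX-2Vector libraries and 14805 to 15160 in the LX-2FAP libraries. Total counts ran from 17355700 to 26352060 per library. Of the 14 stellate cell markers looked up, 11 had at least 10 counts in every library, while LRAT was at 0 in all 6 libraries and DES never passed 1 count. The summed stellate marker level was 2320 to 2450 counts-per-million (CPM) in LX-2Vector and 2360 to 2500 in LX-2FAP. Most of that sum was VIM, which rose (1545 ± 34.5 and 1695 ± 28.2 CPM, SD, n = 3), while the stellate markers COL1A1 (log2 fold change -0.40, adjusted p = 0.0135 by edgeR), COL3A1 (-0.69, 0.00765) and PDGFRB (-0.38, 0.0269) fell. ACTA2 was not called (-0.36, 0.145), with lower values in every LX-2FAP library. TIMP1 was not called either (0.07, 0.31), with higher values in every LX-2FAP library. The other tested stellate markers were not called and overlapped between the groups. Of these, TAGLN (0.12) and both RGS5 entries (0.28 and 0.10) had positive log2 fold changes. COL1A2 (-0.13), SPARC (-0.13) and LHX2 (-0.18) had negative ones. The sums were 13.1 to 14.8 and 10.5 to 11.6 CPM for hepatocyte markers (1 of 7 at 10 counts or more in every library), 9.92 to 11.3 and 7.34 to 9.26 for endothelial markers (3 of 6), 7.41 to 8.29 and 6.56 to 7.59 for epithelial markers (1 of 4), and 11.4 to 15 and 12.8 to 16.7 for leukocyte markers (3 of 6). The hepatocyte and endothelial sums did not overlap between the groups. Of the endothelial markers, VWF was called lower (2.46 and 1.17 CPM, log2 fold change -1.06, adjusted p = 0.0268 by edgeR). PECAM1 (0.05, 0.878) and KDR (-0.20, 0.51) were not called and overlapped. STAB2 was not called (-0.84, 0.168), with lower values in every LX-2FAP library, and CDH5 and LYVE1 were not tested. The hepatocyte sum was nearly all SERPINA1, a serpin that is also in the list of other serpins below (13.3 and 11 CPM, log2 fold change -0.28, adjusted p = 0.0809 by edgeR), and the 6 other hepatocyte markers, albumin among them, had 0 to 4 counts per library. The part of the stellate and endothelial markers in the results below was not tested.

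All 8 members had enough counts to be tested, and 3 of them, SERPINB2, ANXA2 and PLAUR, had normalized CPM values that did not overlap between the groups. All 3 were higher in LX-2FAP. Groups did not overlap for 26.4% of all 18275 tested genes. Lack of overlap was part of the rule that picked SERPINB2, and of the other 7 members 2 did not overlap, a share near that of all genes. The bases just before the start of these 3 genes are shown as a description only. They were taken from RefSeq promoter windows (GRCh38.p14), which were found for 6 of the 8 members, and are printed from 5′ to 3′ on the gene's strand. Capitals mark the AP-1 type motif TGANTCA and the TATA box TATAAA. Bases inside an exon of any GENCODE transcript were left off, except for PLAUR, whose window lies wholly within an annotated exon and is cut to the motif with 10 bases on each side. The RefSeq starts of SERPINB2 and ANXA2 lie inside the wider GENCODE spans of these genes given further on.
SERPINB2 (chr18:63887455-63887699, + strand): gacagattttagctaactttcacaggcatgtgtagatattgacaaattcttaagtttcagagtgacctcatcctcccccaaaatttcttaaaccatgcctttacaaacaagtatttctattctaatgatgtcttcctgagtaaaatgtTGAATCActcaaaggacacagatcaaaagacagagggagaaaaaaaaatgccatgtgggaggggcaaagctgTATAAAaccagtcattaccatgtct
ANXA2 (chr15:60398044-60398236, - strand): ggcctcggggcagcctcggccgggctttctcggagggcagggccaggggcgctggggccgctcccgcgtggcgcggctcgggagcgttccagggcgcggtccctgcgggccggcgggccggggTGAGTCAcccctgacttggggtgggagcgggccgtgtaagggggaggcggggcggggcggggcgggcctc
PLAUR (chr19:43670339-43670365, - strand): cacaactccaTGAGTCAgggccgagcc

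The motif began 102 bases before the start in SERPINB2, 127 bases in ANXA2 and 186 bases in PLAUR. It was not found in the 250-base windows of PLAU (a pair of starts), SERPINE2 (a pair of starts) or S100A10, so 3 of 8 member windows held it, against 6.57% of all 35116 promoter windows of that length. The TATA box stood 30 bases before the start in SERPINB2 and 31 bases before it in ANXA2, in the part of that window not printed because other transcripts cover it, and was found in 10.7% of all windows. Both strands were searched, and neither motif overlapped the other. The GC box GGGCGG was found in 5 of the 8 member windows, with none in SERPINB2, PLAUR and the upstream PLAU window, and in 42.6% of all windows. The letters CACGTG, an E-box, were found in 1 member window, of SERPINE2, and in 6.34% of all windows. The motifs were chosen after the sequences and the changes had been seen, and a match is a description of the letters only.

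Among the activators, urokinase showed no detectable difference between the groups. PLAU (ENSG00000122861, GRCh38 chromosome 10, 73909177 to 73917497) had 39.2, 43.5 and 43.4 CPM in LX-2Vector replicates 1 to 3 and 42.9, 43.4 and 42.4 CPM in LX-2FAP replicates 1 to 3. The groups overlapped, and the LX-2FAP libraries lay closer together (SD 0.492 CPM) than the LX-2Vector libraries (SD 2.47 CPM). The PLAU log2 fold change was 0.03 (SE 0.06, edgeR adjusted p = 0.795), with a 95% interval of -0.09 to 0.15. C10orf55, a gene on the other strand, covers 31.1% of the PLAU exon bases. It had 8 to 12 counts per library itself, beside 764 to 1036 for PLAU. The use of strand in counting is not given in the sources used here, so how reads over the shared bases were counted is uncertain.

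Tissue plasminogen activator was the activator with the higher level. PLAT (ENSG00000104368, chromosome 8, 42175233 to 42207724) had 166.2, 160.1 and 186.2 CPM in LX-2Vector and 178.6, 146.2 and 159.2 CPM in LX-2FAP. The groups overlapped, with LX-2FAP replicate 2 lowest and LX-2Vector replicate 3 highest. The PLAT log2 fold change was -0.08 (SE 0.07, edgeR adjusted p = 0.516, 95% interval -0.22 to 0.06). In FPKM, the authors' measure scaled to gene length and library size, PLAT was 22.2 ± 1.79 and PLAU 14.4 ± 0.906 in LX-2Vector (SD, n = 3). PLAT over PLAU in FPKM was 1.61, 1.40 and 1.63 in LX-2Vector and 1.58, 1.28 and 1.42 in LX-2FAP, so the balance of the activators overlapped between the groups.

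The urokinase receptor was higher in LX-2FAP but did not pass the test. PLAUR (ENSG00000011422, chromosome 19, 43646095 to 43670547), whose promoter window is printed above, had 74.1, 70.2 and 65.8 CPM in LX-2Vector and 74.2, 88.2 and 81.6 CPM in LX-2FAP. LX-2FAP replicate 1 stood only just above LX-2Vector replicate 1. The PLAUR log2 fold change was 0.21 (SE 0.06, edgeR adjusted p = 0.057), with a 95% interval of 0.08 to 0.34. It was called without LX-2FAP replicate 1 (log2 fold change 0.28, edgeR adjusted p = 0.00789), and it was called by the DESeq2 Wald test (adjusted p = 0.0272), and the adjusted p ran from 0.00399 to 0.249 over all 14 alternatives. PLAUR over PLAU in FPKM was 1.25, 1.07 and 1.00 in LX-2Vector and 1.14, 1.34 and 1.27 in LX-2FAP, which overlapped.

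**Figure D1:**
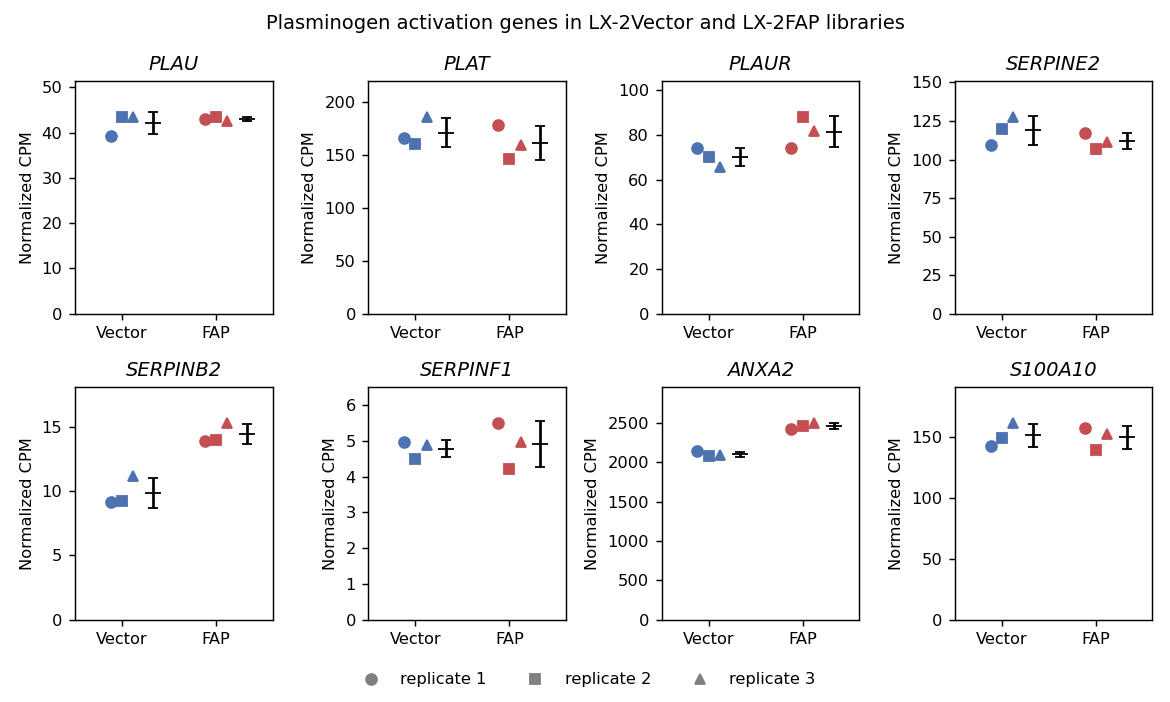
Normalized counts-per-million (vertical axes, each from 0) of the 8 genes in 3 LX-2Vector (blue) and 3 LX-2FAP (red) libraries. Symbols are single libraries and black bars the mean with its SD. SERPINB2, ANXA2 and PLAUR lie higher in every LX-2FAP library than in any LX-2Vector library, while the groups overlap for the other 5 genes.

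Annexin A2 rose in LX-2FAP while its partner S100A10 showed none that was detectable. ANXA2 (ENSG00000182718, chromosome 15, 60347134 to 60402883) had 2140, 2080 and 2091 CPM in LX-2Vector and 2421, 2465 and 2504 CPM in LX-2FAP. The groups did not overlap, with means of 2104 ± 32.2 and 2463 ± 41.5 CPM (SD, n = 3). The ANXA2 log2 fold change was 0.23 (SE 0.03, edgeR adjusted p = 0.00386), a 1.17-fold rise with a 95% interval of 0.16 to 0.30 on the log2 scale. ANXA2 was the only called gene of the 7 members other than SERPINB2, and 2.57% of all tested genes were called higher, 2.73% lower and 5.29% in either direction at an adjusted p under 0.05. Scaled by library size alone, 239 genes were called higher and 809 lower, in place of 469 and 498, and ANXA2 was still called higher. Without LX-2FAP replicate 3 it was not called (log2 fold change 0.22, edgeR adjusted p = 0.0616). Over the 14 alternatives the log2 fold change stayed between 0.20 and 0.24 and the adjusted p ran from 2.85e-08 to 0.113.

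ANXA2 has processed pseudogene copies, and reads may be divided among them. ANXA2P2 counts were 6.26%, 6.33% and 6.30% of ANXA2 counts in LX-2Vector and 6.16%, 6.30% and 6.10% in LX-2FAP, so the proportion overlapped between the groups. ANXA2P2 was itself called higher (log2 fold change 0.20, SE 0.04, edgeR adjusted p = 0.0135), ANXA2P1 had 16 to 37 counts per library and ANXA2P3 had 0 in all 6. How many reads of one gene were assigned to another was not tested.

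S100A10 (ENSG00000197747, chromosome 1, 151982915 to 151994390) had 142.6, 149.0 and 161.5 CPM in LX-2Vector and 157.2, 139.0 and 152.6 CPM in LX-2FAP. The groups overlapped. The S100A10 log2 fold change was -0.01 (SE 0.05, edgeR adjusted p = 0.928, 95% interval -0.13 to 0.10). S100A10 over ANXA2 in FPKM was 0.762, 0.819 and 0.883 in LX-2Vector and 0.742, 0.645 and 0.697 in LX-2FAP. Every LX-2FAP library was below every LX-2Vector library, though LX-2FAP replicate 1 was close to LX-2Vector replicate 1.

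Of the serpins, SERPINB2 was higher in each LX-2FAP library and the other members were not. SERPINB2 (PAI-2, ENSG00000197632, chromosome 18, 63871692 to 63903890), a largely intracellular inhibitor of urokinase, had 241, 162 and 238 counts in LX-2Vector and 334, 252 and 321 in LX-2FAP. These are 9.12, 9.23 and 11.2 CPM in LX-2Vector and 13.9, 14.0 and 15.3 CPM in LX-2FAP. LX-2Vector replicate 3 was the highest control and LX-2FAP replicate 3 the highest library. The SERPINB2 log2 fold change was 0.55 (SE 0.10), which is 1.47-fold and the largest of the members. With 1 library left out it ran from 0.49 (LX-2Vector replicate 1) to 0.66 (LX-2Vector replicate 3).

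The rule behind the choice of SERPINB2 ranked by log2 fold change the 462 genes that were called higher, averaged 100 counts or more and did not overlap, and took the top 5. SERPINB2 was number 5, with FAP counted. MMP1, just above it, had a log2 fold change of 0.57, and HMGN5, just below the limit, had 0.47. SERPINB10, which shares 19.9% of the SERPINB2 exon bases on the same strand, had 0 to 3 counts in every library. By Pearson correlation of log2 CPM over the 6 libraries, the genes most like SERPINB2 among 11554 others were PITRM1, PRR11 and FGF5, at r from 0.993 to 0.995, and 151 genes were above 0.95. The 6 points share the libraries and the group difference, so these values are a description of likeness. Their log2 fold changes were 0.10 for PITRM1 (edgeR adjusted p = 0.201), 0.12 for PRR11 (0.0916) and 0.29 for FGF5 (0.00719).

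SERPINE2 (protease nexin-1, ENSG00000135919, chromosome 2, 223975112 to 224039319), a secreted inhibitor of thrombin, urokinase and tPA, had 109.4, 119.6 and 127.9 CPM in LX-2Vector and 117.3, 106.7 and 111.5 CPM in LX-2FAP. The groups overlapped. The SERPINE2 log2 fold change was -0.09 (SE 0.06, edgeR adjusted p = 0.391, 95% interval -0.20 to 0.03). SERPINE2 over the sum of PLAU and PLAT, in FPKM, was 0.352, 0.377 and 0.369 in LX-2Vector and 0.349, 0.355 and 0.357 in LX-2FAP, which overlapped.

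SERPINF1 (pigment epithelium-derived factor, ENSG00000132386, chromosome 17, 1761959 to 1777574), a serpin that does not inhibit proteases and is known as an antiangiogenic factor, was the lowest member. It had 4.96, 4.50 and 4.89 CPM in LX-2Vector and 5.51, 4.22 and 4.96 CPM in LX-2FAP. The LX-2FAP libraries enclosed all the LX-2Vector values. With 76 to 132 counts per library the SERPINF1 log2 fold change was 0.04 (SE 0.13, adjusted p = 0.896 by edgeR), and the 95% interval of -0.23 to 0.31 leaves room for a change of the size seen in ANXA2.

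**Figure D2:**
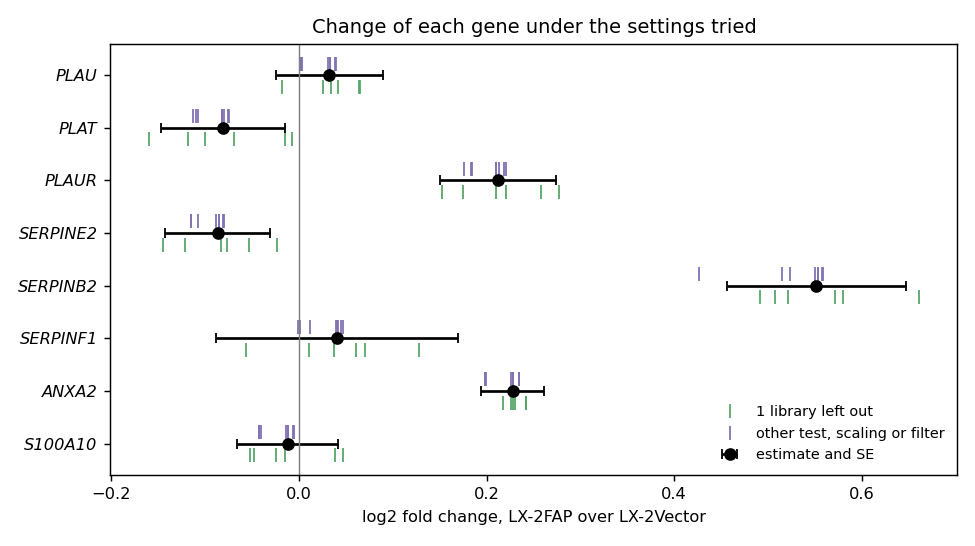
Log2 fold change of LX-2FAP over LX-2Vector (horizontal axis) for the 8 genes. Black points are the edgeR estimates with their SE, green ticks the 6 fits that left out 1 library and purple ticks the 8 other alternatives. SERPINB2, ANXA2 and PLAUR stay above 0 throughout, PLAT and SERPINE2 stay below it, and PLAU, SERPINF1 and S100A10 fall on both sides.

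Per length, the members fell in the order ANXA2, S100A10, PLAT, PLAUR, PLAU, SERPINE2, SERPINB2 and SERPINF1 in LX-2Vector. ANXA2 had 183.2 ± 1.97 FPKM and S100A10 150.4 ± 10.0 FPKM (SD, n = 3), above 99.8% and 99.7% of the 41175 genes with a count. PLAT, PLAUR (15.8 ± 0.886 FPKM), PLAU and SERPINE2 (13.4 ± 1.09 FPKM) stood lower, SERPINE2 above 91.0% and PLAUR above 92.5% of those genes. SERPINB2 had 3.62 ± 0.434 FPKM and SERPINF1 1.61 ± 0.0778 FPKM. PLAUR and PLAU overlapped over the LX-2Vector libraries, as did PLAU and SERPINE2, and the other neighbours did not. The order of the means was the same in LX-2FAP, where ANXA2 had 210.3 ± 3.14 and SERPINB2 5.20 ± 0.276 FPKM, and PLAT overlapped PLAUR. The gene lengths behind FPKM, got back from counts and FPKM, were 11574 bases for ANXA2 and 1012 bases for S100A10, where GENCODE release 29 gives merged exon lengths of 8824 and 1543 bases, so the nearness of this pair in FPKM rests on the gene models. A length is the same in every library, so it sets the level of a ratio of 2 genes and not its change between the groups. By mean CPM over all 6 libraries the pair stood at 2284 and 150.3, and 3 of the 8 members kept their place in the order.

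**Figure D3:**
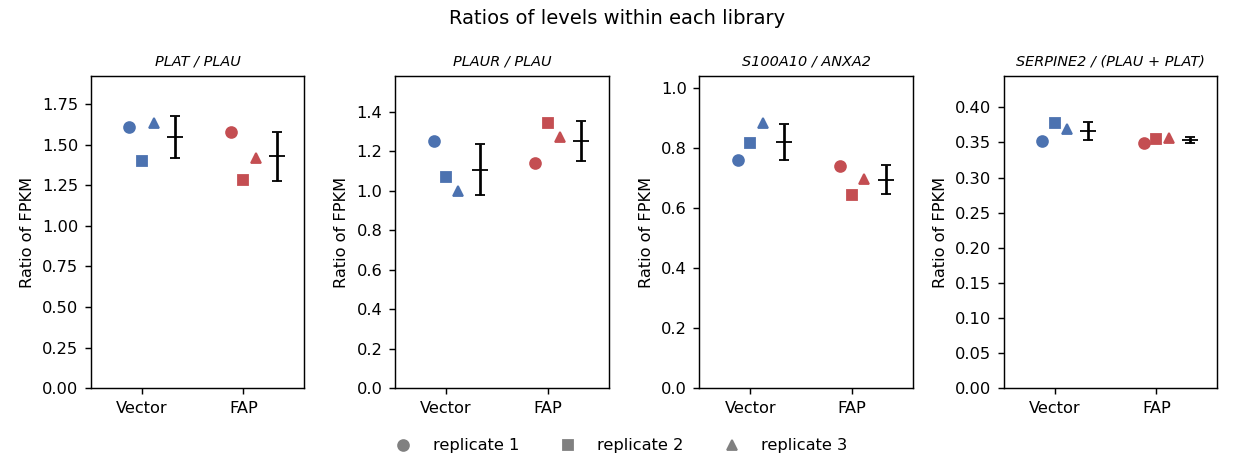
Ratios of FPKM within each library (vertical axes, each from 0) for 3 LX-2Vector (blue) and 3 LX-2FAP (red) libraries, with the mean and SD in black. S100A10 over ANXA2 lies lower in every LX-2FAP library than in any LX-2Vector library, and the groups overlap for the other 3 ratios.

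The wider system was read from 5 lists that hold 77 genes, of which 56 were tested. Of these, 10 were called (17.9%), 6 higher and 4 lower, beside 5.29% of all tested genes. Their median log2 fold change, over the 56 tested, was -0.02 beside -0.01 over all tested genes. The lists were chosen with earlier results of these data known, so the share called is a description. Scaled by library size alone, 8 list genes were called, 3 higher and 5 lower: ANXA5, SERPINB8 and S100A16 lost their calls (adjusted p = 0.0927, 0.0694 and 0.0588 by edgeR) and SERPINB9 was called lower. Without LX-2FAP replicate 3 only TFPI2 of the 10 was called, and 16 list genes had an unadjusted p under 0.05. Without LX-2FAP replicate 1 the number called was 17, without LX-2FAP replicate 2 it was 3 and without LX-2Vector replicate 1 it was 5.

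Plasminogen itself was not seen in these cells. PLG had 0 counts in all 6 libraries, which allows up to 3 counts or 0.114 to 0.171 CPM per library and covers counting error only. SERPINF2, the α2-antiplasmin gene whose product FAPα trims, had 2 to 11 counts per library and was not tested. Among plasminogen and its other binding proteins, 5 of 10 genes were tested. EdgeR called 0 of them, beside 5.29% of all tested genes, and 2 had an unadjusted p under 0.05. The DESeq2 Wald test and limma-trend also called 0. The 2 were PLGRKT, a plasminogen receptor, with 9.46 to 10.7 CPM in LX-2Vector and 11 to 14.8 in LX-2FAP (PLGRKT log2 fold change 0.34, edgeR adjusted p = 0.0741), and KRT8 (-0.11, edgeR adjusted p = 0.167). PLGRKT was called by edgeR without LX-2FAP replicate 1 and with no filter on low counts. ENO1, a glycolytic enzyme that also binds plasminogen on the cell surface, had 2042 ± 59.6 CPM in LX-2Vector and 1978 ± 43.6 in LX-2FAP (SD, n = 3, edgeR adjusted p = 0.49).

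Among partners of the urokinase receptor and clearance receptors, 3 of 17 tested genes were called, all lower in LX-2FAP. Over all tested genes 2.73% were called lower. LRP1, the endocytic receptor that clears complexes of activators with serpins, had 194.9, 167 and 192.5 CPM in LX-2Vector and 158.8, 127.1 and 134.1 CPM in LX-2FAP. All LX-2FAP values were below all LX-2Vector values, and the LRP1 log2 fold change was -0.40 (SE 0.07, edgeR adjusted p = 0.00823). MRC2 (uPARAP, a collagen receptor that associates with uPAR) fell, with 89.9 ± 5.85 CPM in LX-2Vector and 74.6 ± 7.47 in LX-2FAP (SD, n = 3, log2 fold change -0.27, edgeR adjusted p = 0.0306). VTN, which encodes the uPAR ligand vitronectin, fell too, with 3.28 ± 0.547 CPM in LX-2Vector and 2.06 ± 0.0981 in LX-2FAP (SD, n = 3, log2 fold change -0.67, edgeR adjusted p = 0.0331) on 35 to 99 counts per library. The DESeq2 Wald test gave VTN no adjusted p. LRP1 was not called without LX-2FAP replicate 3 (log2 fold change -0.37, edgeR adjusted p = 0.0748), and MRC2 and VTN were called in 2 of the 6 fits that left out a library. Genes on the opposite strand cover 12.6% of the MRC2 exon bases, and a gene on the same strand covers 13.6% of those of VTN.

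Among other serpins and inhibitors, 2 of 9 tested genes were called, beside 5.29% of all tested genes. TFPI2, a Kunitz-type inhibitor of plasmin and trypsin, had 386.6, 503.6 and 466.1 CPM in LX-2Vector and 584.5, 632.6 and 640.5 CPM in LX-2FAP. The TFPI2 log2 fold change was 0.46 (SE 0.07, adjusted p = 0.0044 by edgeR), and it was called in all 6 fits that left out a library. SERPING1, the C1 inhibitor gene, had 14.7, 15.8 and 21.5 CPM in LX-2Vector and 14.4, 7.45 and 8.59 CPM in LX-2FAP, with LX-2FAP replicate 1 close to the controls. The SERPING1 log2 fold change was -0.75 (SE 0.18, edgeR adjusted p = 0.0306), -1.10 without LX-2FAP replicate 1, and it was called in 2 of the 6 fits that left out a library. The DESeq2 Wald test did not call SERPING1 (log2 fold change -0.77, adjusted p = 0.132).

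SERPINB2 belongs to the clade B serpins, and of its 12 relatives 6 were tested and 2 were called, both higher. Over all tested genes 2.57% were called higher. SERPINB7, a neighbour of SERPINB2 in the chromosome 18 cluster, rose, with 11.2 ± 1.53 CPM in LX-2Vector and 14.9 ± 0.993 in LX-2FAP (SD, n = 3, log2 fold change 0.42, edgeR adjusted p = 0.0272). SERPINB8, from the same cluster, also rose, with 69.7 ± 2.82 CPM in LX-2Vector and 80.02 ± 4.82 in LX-2FAP (SD, n = 3, log2 fold change 0.20, edgeR adjusted p = 0.0443). SERPINB7 was called in 3 of the 6 fits that left out a library and SERPINB8 in 1, and 10.7% of the SERPINB8 exon bases are shared with other genes. SERPINB9, the granzyme B inhibitor, was not called (log2 fold change -0.49, adjusted p = 0.0583 by edgeR), and its groups did not overlap. SERPINB9 was called lower in 6 of the 14 alternatives, the DESeq2 Wald test among them, and SERPINB8 was called higher in 5. SERPINB5, also of the chromosome 18 cluster, had 10 to 20 counts per library (log2 fold change -0.40, adjusted p = 0.492 by edgeR). Its relatives SERPINB3, SERPINB4, SERPINB10, SERPINB11, SERPINB12 and SERPINB13 were at 0 to 3 counts per library.

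Among annexins and S100 proteins, 3 of 19 tested genes were called, all higher, beside 2.57% of all tested genes called higher. ANXA1, whose product has an anti-inflammatory role, had 389.7, 406.9 and 384.0 CPM in LX-2Vector and 451.2, 493.0 and 509.8 CPM in LX-2FAP. The ANXA1 groups did not overlap (log2 fold change 0.30, SE 0.05, edgeR adjusted p = 0.0044). ANXA5 (log2 fold change 0.14, edgeR adjusted p = 0.0425) and S100A16 (0.17, edgeR adjusted p = 0.032) rose by less, and each was called in 2 of the 6 fits that left out a library, whereas ANXA1 was lost without LX-2FAP replicate 3 only. AHNAK, a scaffold of the annexin A2 and S100A10 complex, had 4926 ± 178.2 CPM in LX-2Vector and 5360 ± 67.6 in LX-2FAP (SD, n = 3, log2 fold change 0.12, edgeR adjusted p = 0.0505). The AHNAK groups did not overlap, and it was called in 6 of the 14 alternatives, the DESeq2 Wald test among them. S100A6, at 245.6 ± 4.82 FPKM in LX-2Vector, and S100A11 were not called, with edgeR adjusted p-values of 0.133 and 0.572.

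**Figure D4:**
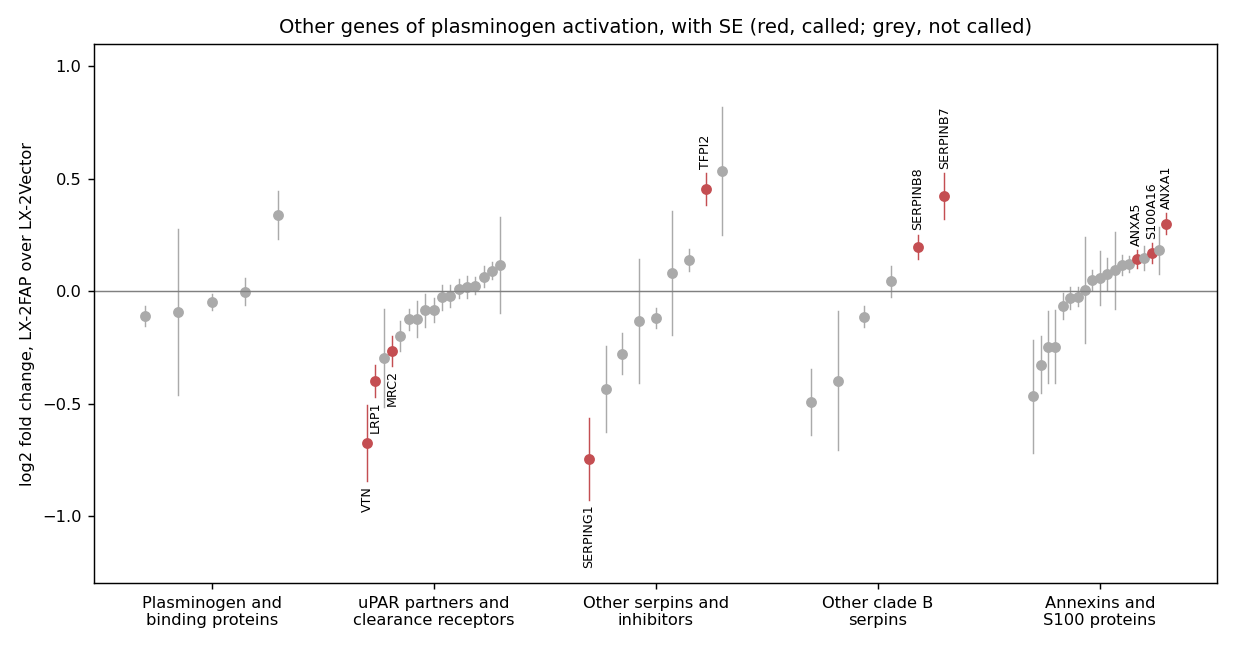
Log2 fold change of LX-2FAP over LX-2Vector (vertical axis) with its SE for the 56 tested genes of 5 lists (horizontal axis), in rising order within a list. Red points passed the edgeR test (adjusted p under 0.05) and grey points did not. The 3 called genes among uPAR partners and clearance receptors lie below 0, as does SERPING1. The called clade B serpins, annexins, S100A16 and TFPI2 lie above it.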

How the data were processed

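Per the study's methods and the submitters' notes, the authors aligned paired-end reads with HISAT2 2.0.5 and counted them per gene with featureCounts 1.5.0-p3. The deposited counts are raw. The FPKM values beside them were made by the authors from the same counts and each gene's length. Per the labels ribosomal RNA was depleted, while the methods also name poly(A) isolation. The notes name hg18 as build, but all 8 members matched GENCODE release 29 (GRCh38) by identifier and coordinates and exon overlaps are from there. The gene length behind FPKM equalled the merged exon length of that release for 1 of the 8, so overlap shares may differ in the annotation used for counting. The annotation and strand setting used for counting are not given in the sources used here.

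Counts were fitted with edgeR 4.0.16 (quasi-likelihood test, TMM, minimum count of 10 and minimum total of 15, no covariate) over the whole table. A gene was called at a Benjamini-Hochberg adjusted p under 0.05 over 18275 genes. Tests were 2-sided, and the steps were tested on simulated data. That check required recovery only of changes larger than those of the members. CPM is TMM-normalized. With 3 against 3, an exact permutation test of 1 gene cannot give p below 0.1. Bulk RNA cannot tell fewer cells of a type from less RNA per cell. The members and lists were chosen with earlier results of these data known. Text names all members, called list genes, list genes above the highest member, gene copies and overlaps, and genes just outside the rule. Some genes of the lists are not reported here by name. PLGRKT, KRT8, SERPINB5, SERPINB9, SERPINA1 and SERPINF2 were named after their values were seen.

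Alternatives were DESeq2 1.42.0, its size factors, library size alone, other count filters, limma-trend (limma 3.58.1) after adding 1 or 0.1 to FPKM and taking log2, a block for replicate number, and each library left out.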

Additional observations from a re-analysis of the deposited data

How the results depend on the processing

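Of the 8 members, 2 were called (SERPINB2, chosen on this comparison, and ANXA2), and 10 list genes and 967 genes in all, 469 higher and 498 lower. Counts of members in this section include SERPINB2, whose calls are a description and not a test. Leaving out 1 library each gave 0 to 3 members, 1 to 17 list genes, 26 to 1949 genes called, 14 to 892 higher and 12 to 1057 lower, the lowest without LX-2FAP replicate 3 and the highest without LX-2FAP replicate 1. Limma-trend called 2 genes with each pseudocount, 1 higher and 1 lower, and 0 members and 0 list genes. There, 3 members (ANXA2, PLAUR and the chosen SERPINB2) and 22 list genes had an unadjusted p under 0.05. With no filter on low counts 1606 genes, 929 of them lower, and 17 list genes were called. Library size alone gave 239 higher and 809 lower, with a median log2 fold change of -0.04 over all genes against -0.01, and the direction of every member stayed. The cause was not tested. Log2 fold changes of 3 uncalled members changed sign. With 1 library left out PLAU ran from -0.0177 (LX-2Vector replicate 1) to 0.0657, SERPINF1 from -0.056 (LX-2FAP replicate 1) to 0.1285, and S100A10 from -0.052 to 0.0466 (LX-2Vector replicate 3; 0.0382 for LX-2FAP replicate 2). SERPINF1 was also -0.0008 by limma-trend with 0.1 added.

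With the replicate number as a block, edgeR called 2 members, 12 list genes and 975 genes, and SERPINB8 was lost. The numbers share no stated culture or day. The deviations of same-numbered libraries from their group means correlated at -0.039, 0.044 and -0.01, and 0 of 3 LX-2FAP libraries were nearest to their own number. SERPINF1 and SERPINB2, with the fewest counts of the members, set the limit of depth.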
